A study of Mus musculus with 12 samples.

Results

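The cytosolic ribosomal protein genes are the protein-coding rows of the count table whose symbol is Rplp0 to Rplp2, Rpsa, or Rpl or Rps followed by a number and, in some, a closing a or x. This rule took 76 of the 55487 rows, 46 for proteins of the large ribosomal subunit and 30 for the small subunit, and used no measured value. Whole lungs of C57BL/6NCr mice, an inbred C57BL/6 substrain, were profiled by poly-A selected RNA sequencing at 4 ages, 6 months, 12 months, 20 months and 30 months, here called 6M, 12M, 20M and 30M. There were 3 libraries for each age, and a library's name joins its age and its replicate number. The labels name no treatment and no engineered allele. Whether the 3 libraries of an age come from 3 mice is not in the labels, and p-values refer to the spread among libraries, which may be technical. Libraries held 12152066 to 15058628 counts, and 18407 genes had enough counts to be tested, among them all 76 members.

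The mammalian ribosome joins a small subunit, which reads the mRNA, to a large subunit, which forms peptide bonds. Nearly every cell makes these proteins in matched amounts, and their mRNAs are among the most abundant in any tissue. In mammals most of them begin with a pyrimidine-rich stretch, the 5′ terminal oligopyrimidine (TOP) tract, through which the growth-signalling kinase complex mTORC1 controls their translation. Poly-A selected counts measure mRNA amounts and not ribosomes or translation. In whole lung, fewer cells of a type and less RNA per cell cannot be told apart.

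The levels of the members varied together from library to library, and libraries of 1 age lay apart from 12M on, most of all at 20M and 30M. At 6M the members took 2.94%, 2.85% and 2.87% of all counts. At 12M the shares were 3.05% in 12M_206, 3.10% in 12M_207 and 3.46% in 12M_208. At 20M they were 3.34% in 20M_213, 2.42% in 20M_221 and 2.40% in 20M_222, so 1 library lay above the 6M range and 2 lay below it. At 30M they were 3.43% in 30M_216, 4.11% in 30M_218 and 2.47% in 30M_220, the same split with 2 libraries above and 1 below. The mean share was 2.89 ± 0.0422% at 6M, 3.20 ± 0.224% at 12M, 2.72 ± 0.538% at 20M and 3.34 ± 0.825% at 30M (SD, n = 3 each). The 4 means lay closer together than the 3 libraries within 20M or within 30M.

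The typical member followed the same pattern. A level is given as CPM, the count per 1e+06 counts of the TMM-scaled library, and each member was set against its own mean over the 6M libraries on the log2 scale. The median over the 76 members was -0.02 to 0.01 in the 6M libraries and 0.06, 0.16 and 0.41 in 12M_206, 12M_207 and 12M_208. It was 0.23 in 20M_213, -0.31 in 20M_221 and -0.22 in 20M_222, and 0.31 in 30M_216, 0.51 in 30M_218 and -0.23 in 30M_220. In 30M_218 all 76 members lay above their 6M mean. In 20M_221, 20M_222 and 30M_220, 67, 64 and 64 members lay below it. In the same 3 libraries 9, 12 and 12 members lay above it. The median over all tested genes was 0.03, 0.03 and 0.01 in these 3 libraries, and -0.0008 in 30M_218. The plot of members by library shows these shifts as moves of most members.

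**Figure D1:**
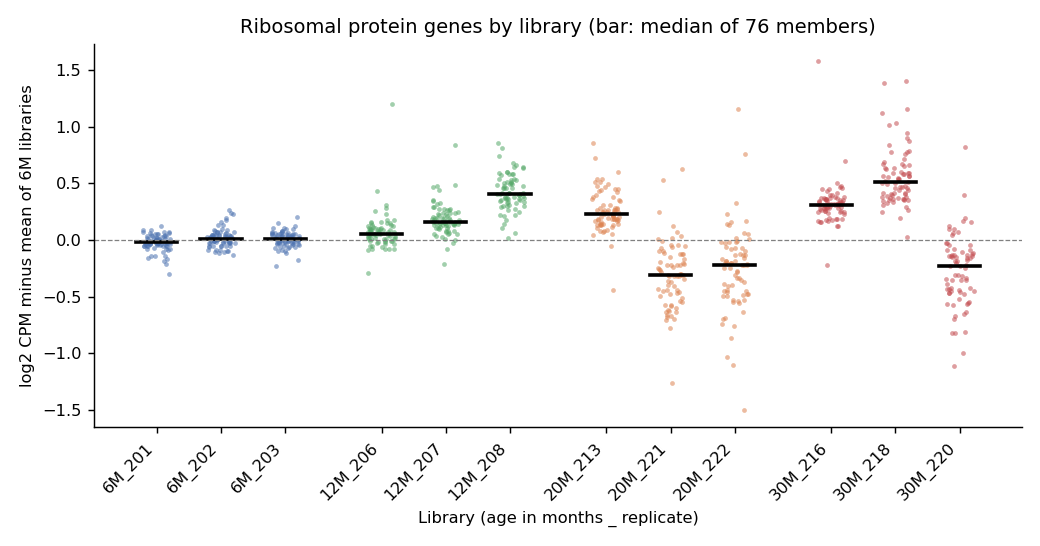
Members by library: the vertical axis gives log2 CPM minus the member's mean over the 6M libraries, and the horizontal axis the 12 libraries in order of age. Points are members (Rps10 and Rpl24, both near 2 CPM, are not drawn) and bars the median over all 76. The medians of 20M_221, 20M_222 and 30M_220 are -0.31, -0.22 and -0.23, and that of 30M_218 is 0.51.

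The medians of large and small subunit genes lay close together in most of these libraries. In 30M_218 the median was 0.53 for the large and 0.50 for the small subunit, and in 30M_220 it was -0.23 for both. In 20M_221 both medians were -0.31, and in 20M_222 the large subunit stood at -0.21 and the small at -0.31, the widest gap among the libraries of 20M and 30M. Over the 12 libraries the median of the 2850 pairwise correlations between members was r = 0.842, and 50 members correlated at over 0.9 with the median of the others. These r describe how members share their libraries and carry no test. Only 4 members fell under 0.5, namely Rps10 at -0.162, Rps29 at 0.176, Rps2 at 0.28 and Rpl7a at 0.288. Rps10 had only 7 to 48 counts in a library, which limits the precision of its r. Among the steadiest members after removal of each library's median were Rpl32 and Rpl13, with an SD of 0.05 and 0.06 on the log2 scale. Rpl32, whose mRNA serves as a reference in many assays, had 273, 273 and 270 CPM at 6M, and 351, 402 and 247 CPM at 30M.

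The 3 libraries with low members were also the 3 with the steepest GC trend over all genes. Relative to 6M, the level of a gene followed the GC content of its transcript with Spearman rho = 0.355 in 20M_221, 0.459 in 20M_222 and 0.321 in 30M_220, across tested genes, which are not replicates. In 12M_208 rho was 0.217, and the remaining 8 libraries ranged over -0.085 to 0.046. The members' transcripts had a median GC of 51.9% (range 41.3% to 60.8%), near the 50.3% of all tested genes. A smooth curve of level on GC put the members slightly up in these libraries, at 0.07 in 20M_221, 0.09 in 20M_222 and 0.08 in 30M_220 on the log2 scale. The measured medians were on the other side of zero, and the distance from the curve was -0.37, -0.34 and -0.31. In 12M_208 the curve gave 0.08 and the members 0.41, so there they lay above it. The trend in 12M_208 was weaker than in the other 3, and the part of whatever gave the trend in the member levels was not tested. Within the 76 members, rho with GC was 0.195, 0.29 and 0.222 in the 3 libraries, the sign seen over all genes.

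**Figure D2:**
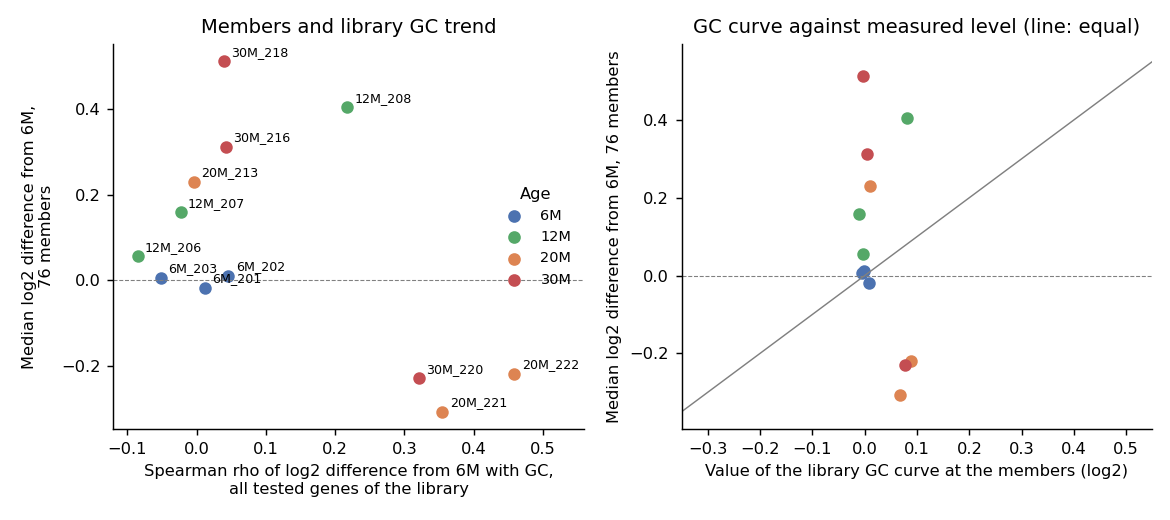
Left: Spearman rho of each library's log2 difference from 6M with transcript GC over all tested genes, against the median log2 difference of the 76 members. Right: the value of the library's GC curve at the members against the same median, with the line of equality. Points are libraries coloured by age. In 20M_221, 20M_222 and 30M_220 the curve lies at 0.07 to 0.09 while the members' medians lie at -0.31 to -0.22.

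The trend of level with transcript length also differed between libraries. The members' transcripts are short, with a median of 774 bases against 2490 over all tested genes. Relative to 6M, level fell with length most in 20M_213 (rho = -0.21 over all genes) and 30M_218 (rho = -0.199), both libraries with high members. Members were also high in 30M_216 and 12M_208, where rho was weaker, at -0.105 and -0.049. A curve on length put the members at 0.11 in 20M_213 and 0.16 in 30M_218, and left medians of 0.12 and 0.36 above it. Within the members, rho with length was -0.416 and -0.293 in these libraries. The part of fragment length or RNA quality in these shifts was not tested.

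Marker levels of lung cell types also differed between these libraries. All 7 alveolar type 2 genes, markers of the surfactant-making epithelium, were measured. Their summed level was 18486 to 31665 CPM at 30M and 19810 to 31917 CPM at 20M, against 30390 to 35101 CPM at 6M. The lowest sums were in 20M_221, 20M_222 and 30M_220, and most of the sum was Sftpc, which averaged 22122 CPM at 6M. By the median over the 7 genes the order differed. It was -0.641 in 20M_221, -0.499 in 20M_222 and -0.456 in 30M_220, and -0.565 in 30M_218, where members were highest. The 6 alveolar type 1 genes ran from 3831 to 5515 CPM at 30M, against 5661 to 6869 CPM at 6M. The median of the 7 endothelial genes went the other way in the 3 libraries with low members. It was 0.405, 0.398 and 0.704 above 6M on the log2 scale in 20M_221, 20M_222 and 30M_220. It was -0.339 in 20M_213, 0.074 in 30M_216 and -0.083 in 30M_218. Not every gene rose. Ednrb had 51.5 CPM in 20M_222 and 61.7 CPM in 30M_220, against a 6M mean of 75.9 CPM. Kdr had 251 CPM in 20M_222, against a 6M mean of 282 CPM. The median of the 7 was also high in 12M_208, at 0.625, where members were high. The fibroblast genes had medians of 0.021, 0.72 and 0.385 in the same 3 libraries, and -0.324, -0.603 and -0.188 in 20M_213, 30M_216 and 30M_218. The 5 erythroid genes summed to 516 to 1126 CPM at 6M, 561 to 2330 CPM at 12M, 257 to 489 CPM at 20M and 1238 to 1294 CPM at 30M. Their highest library, 12M_208, also had the highest member level of its age, but 30M_220 had high erythroid and low member levels. In 20M_222 the 5 tested skeletal muscle genes reached 2155 CPM, and the next highest library, 30M_220, had 41.1 CPM. The 6 interstitial macrophage genes summed to 386 to 480 CPM at 30M and 141 to 170 CPM at 6M. No marker list lay at 0 in any library, and the part of cell composition in the member levels was not tested.

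At 30M, compared with 6M, 1 member was called higher and none lower at an adjusted p under 0.05, by the quasi-likelihood test of edgeR with Benjamini-Hochberg adjustment over all tested genes. That is 1 of 76, against 1.96% of all tested genes called in either direction, 1.93% called higher and 0.0272% called lower, so the share of members is near the background. The member was Rps29, a zinc-binding protein of the small subunit. DESeq2 and limma voom called 2 members, Rps29 and Rpl7a, against 4.09% and 3.26% of all genes. Fitted changes of the members lay mostly above zero, with a median log2 fold change of 0.21 and 73 of 76 positive, against a median of 0.0028 over all genes. Library medians of the members varied within an age with an SD of 0.256 on the log2 scale. A single member had a median SE of 0.22. By edgeR, 7 of the 76 members had an unadjusted p under 0.05, against 2130 of all 18407 tested genes. In 7 members, Rpl7a, Rpl14, Rpl28, Rpl35a, Rps2, Rps16 and Rps29, all 3 libraries at 30M lay above all 3 at 6M, and in none below. The background for such separation was 9.89% of all tested genes higher and 8.66% lower. The median depended on single libraries, at 0.40 without 30M_220 and 0.04 without 30M_218.

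At 12M, compared with 6M, no member was called (0% of all genes were). By edgeR 4 had an unadjusted p under 0.05, against 662 of all 18407 genes. DESeq2 (0.049% of all genes) and limma voom (0%) also called none. The median log2 fold change was 0.22, with 73 of 76 above zero, against 0.017 over all genes. All 3 libraries of 12M lay above all 3 of 6M in 34 members and below in 1, against 6.3% and 5.81% of all tested genes. Because members share their libraries, these 34 are not separate observations. Without 12M_208 the median was 0.10.

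At 20M no member was called against 6M, where 0.0163% of all genes were. An unadjusted p under 0.05 was seen in 3 members with edgeR, against 1434 of 18407 genes, and in 26 with limma voom. DESeq2 called 0 members (0.326% of all genes) and limma voom called Rps27a and Rps29 (3.31% of all genes). The median log2 fold change was -0.09, with 21 members above zero and 55 below, against 0.035 over all genes. It was -0.29 without 20M_213, 0.01 without 20M_221 and -0.03 without 20M_222. Separation of all libraries was seen in 2 members upward, Rpl7a and Rps29, and in 1 downward, Rps27a, against 7.77% and 7.58% of all genes. The 12M, 20M and 30M comparisons share the 6M libraries.

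Between 30M and 20M no member was called (background 0.212%). By edgeR 1 had an unadjusted p under 0.05, against 1636 of 18407 genes. By limma voom 63 did, and its median log2 fold change was 0.51. DESeq2 called Rps27a there (1.73% of all genes) and limma voom no member (1.17%). The edgeR median was 0.33, with 75 of 76 above zero and no member separated in either direction, against 5.69% and 5.16% of all genes. Between 20M and 12M no member was called (0%). By edgeR 5 had an unadjusted p under 0.05, against 2062 of 18407 genes, and by limma voom 45 did. DESeq2 (0.0489% of all genes) and limma voom (0%) called 0 there too. The median was -0.33 with 70 members below zero, and 1 member was separated upward and 4 downward, against 7.59% and 7.42% of all genes. Without 20M_213 these medians were 0.54 and -0.53, without 30M_218 the first was 0.15, and without 30M_220 it was 0.54. Without 12M_208 the second was -0.22.

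A slope on months, which uses all 12 libraries, was called for 1 member, Rps29, against 2.68% of all genes in either direction and 2.5% upward. With DESeq2 and with limma voom 2 members were called, Rps29 and Rpl7a, against 4.89% and 3.29% of all genes. The median slope was 0.0041 per month on the log2 scale, with 60 members above zero. The joint test of all ages called no member (background 1.11%). An unadjusted p under 0.05 was seen in 4 members with edgeR and in 62 with limma voom. There DESeq2 called 3 members (4.28% of all genes) and limma voom 11 (8.64%). Of those 11, Rps27a, Rps29 and Rpl7a were also the 3 that DESeq2 called.

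More members were called when the model held a term for the 3 GC-trended libraries. With it, 9 members were called at 30M against 6M, 11.8% of the members against 2.64% of all genes, and the median log2 fold change was 0.38. The 9 were Rpl7a, Rpl35a, Rpl36a, Rpl37, Rpl38, Rpl39, Rps18, Rps23 and Rps29. For the slope 11 members were then called, against 3.94% of all genes. At 20M against 6M the median became 0.27 and at 20M against 12M 0.07, with no member called (background 0.0217% and 0%). When the 3 libraries were left out instead, 1 library remained at 20M, which the fit takes to vary like the other ages. Rpl39 and Rpl7a were then called at 30M against 6M (background 1.8%), with a median of 0.40, and 8 members for the slope (background 2.75%). These libraries were set apart by their trend over all genes, yet they are also the 3 libraries in which members were low, so a term for them raises the members' fitted changes by construction. Removing the GC curve from every library left Rps29 the only member called at 30M against 6M (background 2.23%), with a median of 0.17. Removing the length curve left the same call (background 2.15%) and a median of 0.15.

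Rps29 (ENSMUSG00000034892, GRCm38 chromosome 12, 69157722 to 69159186, minus strand) lies in the head of the small subunit, and its human counterpart is mutated in some families with Diamond-Blackfan anaemia, a failure of red cell production. It had 144.8, 178.2 and 158.4 CPM at 6M, 174.4, 220.8 and 219.3 CPM at 12M, 264.2, 246.4 and 271.3 CPM at 20M, and 221.5, 418.4 and 282.2 CPM at 30M. Every library of 20M and 30M lay above every library of 6M, those with a steep GC trend included. The log2 fold change at 30M against 6M was 0.94 (SE 0.20, adjusted p = 0.0322), and the slope was 0.039 per month (SE 0.0077, adjusted p = 0.0143). The call at 30M was lost without any of the 3 libraries of 6M (adjusted p = 0.0903 to 0.174) and without 30M_218 (adjusted p = 0.0943). The slope's call was lost without 6M_203 (adjusted p = 0.0566) and without 30M_218 (adjusted p = 0.0793). Rps29 has 1 pseudogene row in the table, with 2 counts in all against 36861 for the gene.

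Rpl7a (ENSMUSG00000062647, chromosome 2, 26910764 to 26913318, plus strand), a large subunit protein whose introns host small nucleolar RNAs, differed most in size. It had 54.9, 53.3 and 63.2 CPM at 6M, 131, 102 and 64.5 CPM at 12M, 103, 82.3 and 127 CPM at 20M, and 170, 151 and 74.9 CPM at 30M. All 9 older libraries lay above the 3 of 6M. The log2 fold change at 30M against 6M was 1.21 (SE 0.30, adjusted p = 0.0681), which missed the threshold. DESeq2 gave adjusted p = 0.00394 and limma voom 0.00785, and over all alternatives it ran from 0.00394 to 0.238. The table also has 14 pseudogene rows for Rpl7a, whose counts came to 33.8% of the gene's own. Gene and pseudogene rows together gave 207.6, 194.6 and 100.3 CPM at 30M, against 84.7, 83.9 and 94.2 CPM at 6M, so that sum was also higher in each library of 30M.

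**Figure D3:**
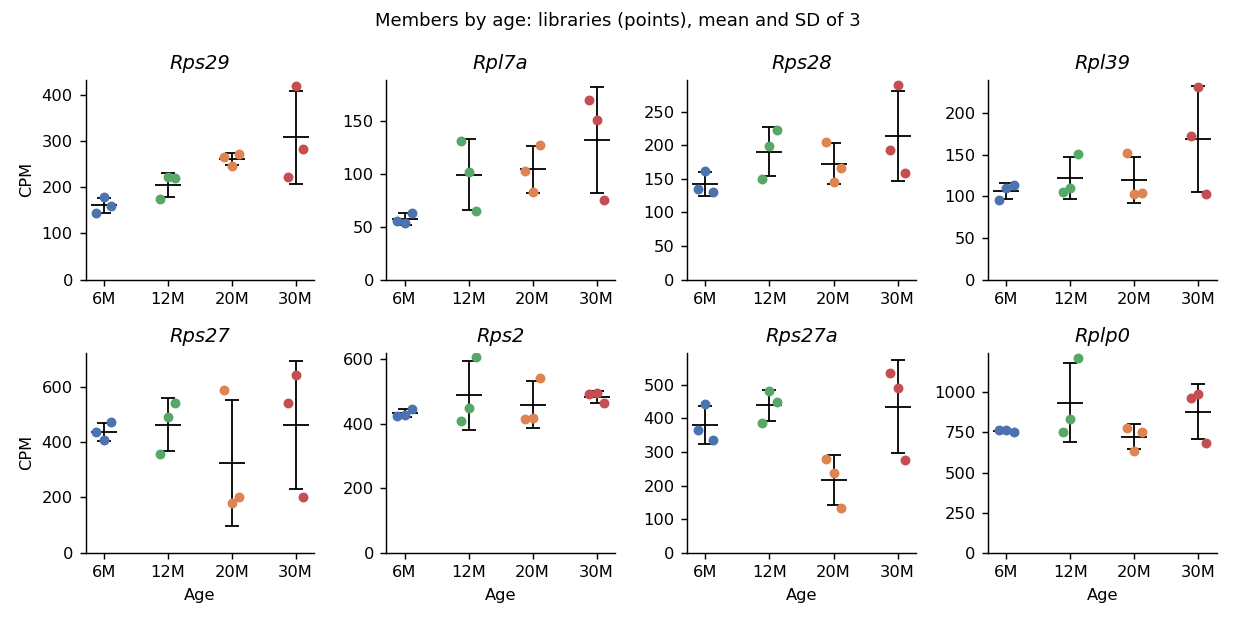
CPM of 8 members at 6M, 12M, 20M and 30M. Points are libraries, the cross bar is their mean and the whisker the SD of 3. Rps29 had 221.5 to 418.4 CPM at 30M and 144.8 to 178.2 CPM at 6M. Rps27 had 181.5 to 202.7 CPM in 20M_221, 20M_222 and 30M_220, and at least 357.3 CPM in the other libraries.

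Among other small-subunit members, Rps28, Rps16 and Rps23 had an unadjusted p under 0.05 at 30M against 6M with edgeR. None of them was called in the fit without the added term. Rps28, which lies at the mRNA exit of the small subunit, had 193, 290 and 160 CPM at 30M, and 134, 162 and 130 CPM at 6M, and the groups overlapped (log2 fold change 0.59, SE 0.22, adjusted p = 0.282). Rps16, which reaches toward the decoding site, had 334, 418 and 301 CPM at 30M, and 270, 262 and 256 CPM at 6M, with no overlap (log2 fold change 0.42, SE 0.16, adjusted p = 0.284). Rps2, a protein of the mRNA entry side, did not have a small p-value (adjusted p = 0.829). It stood at 491, 493 and 462 CPM at 30M and 422, 427 and 445 CPM at 6M. It held nearly the same level in 30M_220 as in the other libraries of that age, unlike most members.

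Of the large subunit, Rpl39, a very short protein that lines the exit tunnel of the nascent chain, had 172, 231 and 103 CPM at 30M, and 96.2, 110 and 114 CPM at 6M (log2 fold change 0.66, SE 0.26, adjusted p = 0.3). Rpl38, a protein whose loss in mice alters skeletal patterning, had 191, 316 and 127 CPM at 30M, and 137, 152 and 137 CPM at 6M (log2 fold change 0.57, SE 0.28, adjusted p = 0.468). In both genes 2 libraries of 30M were above 6M and 30M_220 was within or below it. Rpl35a, mutated in some human cases of Diamond-Blackfan anaemia, had 146, 228 and 130 CPM at 30M, and 124, 122 and 111 CPM at 6M, without overlap (adjusted p = 0.329).

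In 3 members the fitted change was below zero, and none of these was called. Rpl17 had 125, 148 and 72.7 CPM at 30M, and 143, 175 and 124 CPM at 6M (log2 fold change -0.35, SE 0.34, adjusted p = 0.811). Rps12 had 321, 376 and 167 CPM at 30M, and 286, 289 and 309 CPM at 6M (log2 fold change -0.03, adjusted p = 0.987). Rpl24 had only 0.711 to 2.13 CPM at 30M and 1.37 to 2.16 CPM at 6M. Groups overlapped in all 3, and the sign of Rps12 and Rpl24 turned in some alternative fits.

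The ribosomal stalk, which recruits elongation factors, is built on Rplp0 with copies of Rplp1 and Rplp2. Rplp0 had 966, 992 and 683 CPM at 30M, and 763, 762 and 751 CPM at 6M. Its highest library was 12M_208 at 1216 CPM. Rplp1 averaged 669 ± 130 CPM at 30M and 567 ± 13.5 CPM at 6M, and Rplp2 averaged 294 ± 71.2 CPM at 30M and 229 ± 30.8 CPM at 6M (SD, n = 3 each). None of the 3 was called (log2 fold changes 0.21, 0.24 and 0.36, smallest adjusted p = 0.596, no unadjusted p under 0.05, and none called by DESeq2 or limma voom). Unlike most members, Rplp1 and Rplp2 kept to 0.01 and 0.15 above 6M in the mean of the 3 GC-trended libraries.

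Rpl5 and Rpl11, which with 5S rRNA form the particle that binds Mdm2 and so links ribosome assembly to p53, were not called by edgeR, DESeq2 or limma voom, and neither had an unadjusted p under 0.05. Rpl5 had 840, 836 and 487 CPM at 30M, and 631, 650 and 686 CPM at 6M (log2 fold change 0.14, SE 0.24, adjusted p = 0.914). Rpl11 had 492, 511 and 280 CPM at 30M, and 365, 394 and 374 CPM at 6M (log2 fold change 0.18, SE 0.23, adjusted p = 0.876). At 30M both genes split into 2 libraries above and 1 below all libraries of 6M.

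Of 10 members whose human counterparts are mutated in Diamond-Blackfan anaemia and were listed as such, none was called at 30M against 6M by edgeR, DESeq2 or limma voom, 1 had an unadjusted p under 0.05, all 10 had a fold change above zero, and the median was 0.16. Rps29 was not on that list. Rps19, the member most often mutated in that disease, had 520, 575 and 398 CPM at 30M, and 426, 393 and 452 CPM at 6M (log2 fold change 0.23, SE 0.19, adjusted p = 0.747). Rps6, the substrate of S6 kinase that serves as a readout of mTORC1, had 682, 717 and 407 CPM at 30M, and 558, 561 and 577 CPM at 6M (log2 fold change 0.09, SE 0.24, adjusted p = 0.948). The laminin-binding Rpsa averaged 1029 ± 355 CPM at 30M and 922 ± 25.8 CPM at 6M (adjusted p = 0.908). Of the X-linked members, Rps4x averaged 796 ± 187 CPM at 30M and 645 ± 50 CPM at 6M, and Rpl10 765 ± 181 CPM at 30M and 693 ± 22.1 CPM at 6M, with adjusted p = 0.65 and 0.897. Rpl22, an RNA-binding member that regulates its own paralog, averaged 350 ± 129 CPM at 30M and 322 ± 6.72 CPM at 6M (adjusted p = 0.942). The 5 members that are common reference genes in quantitative PCR gave a median log2 fold change of 0.21 at 30M against 6M and -0.07 at 20M against 6M. None was called or had an unadjusted p under 0.05 with edgeR, and DESeq2 and limma voom called none at 30M against 6M.

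In the 3 GC-trended libraries the members spread widely around their low median. Relative to 6M, the mean over these libraries was lowest for Rps27 at -1.16, Rps27a at -0.87 and Rps24 at -0.83, all of the small subunit. It was highest for Rps29 at 0.74 and Rpl7a at 0.69. In all, 62 members lay below their 6M mean in each of the 3 and 6 lay above it in each. In each of 20M_213, 30M_216 and 30M_218, 71 lay above it. The share of all tested genes that did so was not counted, so these counts have no background. Rps27, a zinc-finger protein with the shortest transcript of the family, had 435.6, 406.9 and 471.9 CPM at 6M, 357.3, 492.5 and 540.7 CPM at 12M, 588.7, 181.5 and 202.7 CPM at 20M, and 542, 641.2 and 202.1 CPM at 30M. Its libraries thus formed a low set of 20M_221, 20M_222 and 30M_220 and a high set of the rest, and it was not called at 30M against 6M (log2 fold change 0.08, SE 0.46, adjusted p = 0.982).

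Rps27a, made as a fusion with ubiquitin, was low in all libraries of 20M, the one without a GC trend included. It had 279, 239 and 134 CPM at 20M, and 364, 444 and 335 CPM at 6M (log2 fold change -0.81, SE 0.28, adjusted p = 0.638). Against 12M, with 387, 480 and 448 CPM, the log2 fold change at 20M was -1.01 (adjusted p = 0.429), and at 30M it stood at 535, 492 and 278 CPM. Its pseudogene rows held 226 CPM in 20M_213, against 27.2 to 106 CPM in the 6M libraries. Gene and pseudogene rows summed to 505 CPM in 20M_213, which lies above the 441 to 471 CPM of 6M. In 20M_221 and 20M_222 the sums were 287.1 and 245.8 CPM, below all of 6M, and the part of read assignment between the copies in these values was not tested.

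**Figure D4:**
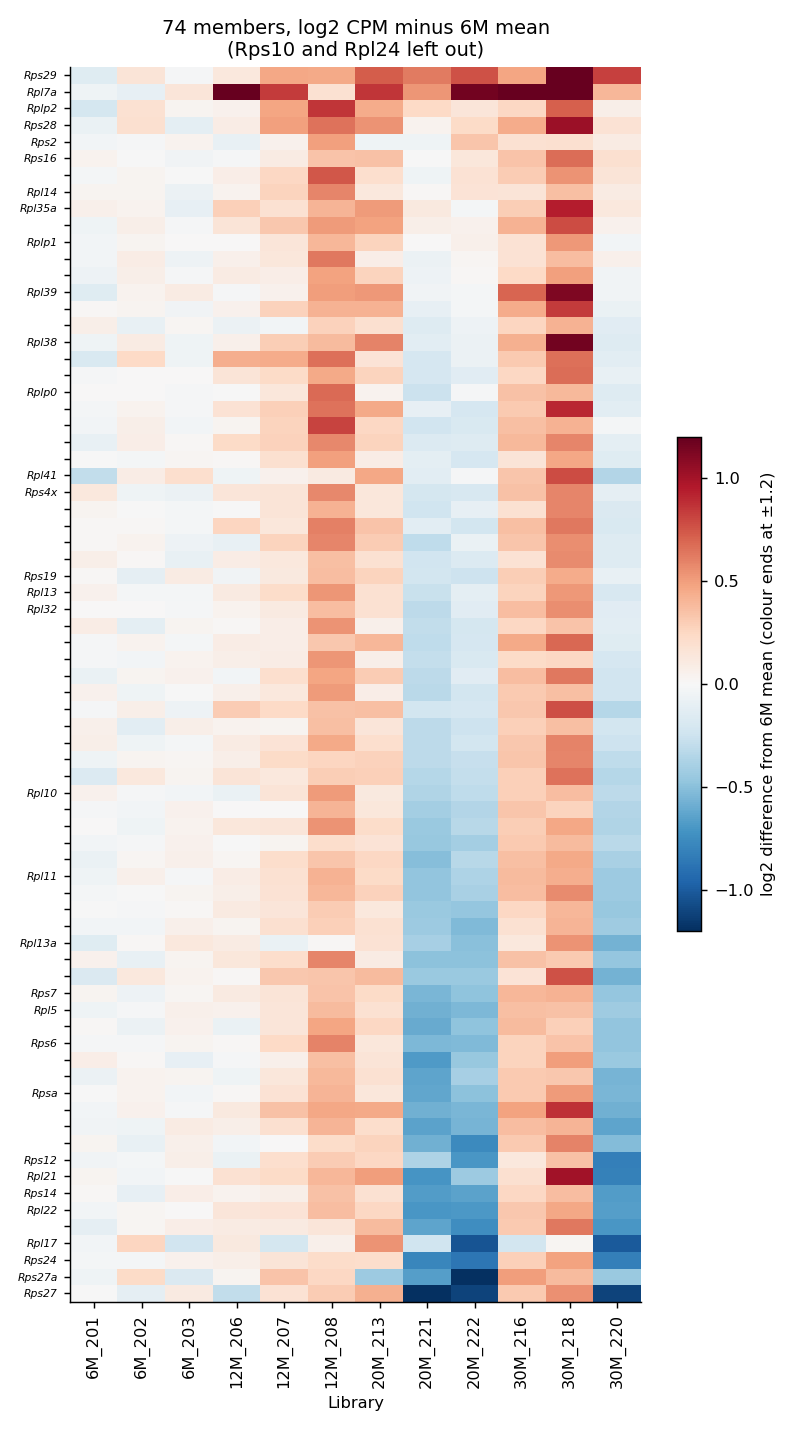
Log2 CPM minus the 6M mean for 74 members (rows, ordered by their mean in 20M_221, 20M_222 and 30M_220, with some of the names given) in the 12 libraries (columns). Red is above and blue below 6M, and the colour ends at ±1.2. The columns of the 3 named libraries are mostly blue, with Rps29 and Rpl7a red at the top and Rps27 deepest blue at the bottom.

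The median change at 30M against 6M was larger for members with short transcripts, and this difference was not tested. The 13 members of at most 500 bases had a median log2 fold change of 0.25, against 0.14 over all genes of that length. For the 20 members over 1000 bases it was 0.17, against -0.01 over all genes of that length. The members' median was above that of genes of their own length in both classes. Across members, rho of the change with length was -0.217 and with GC 0.072, both descriptions with n = 76.

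**Figure D5:**
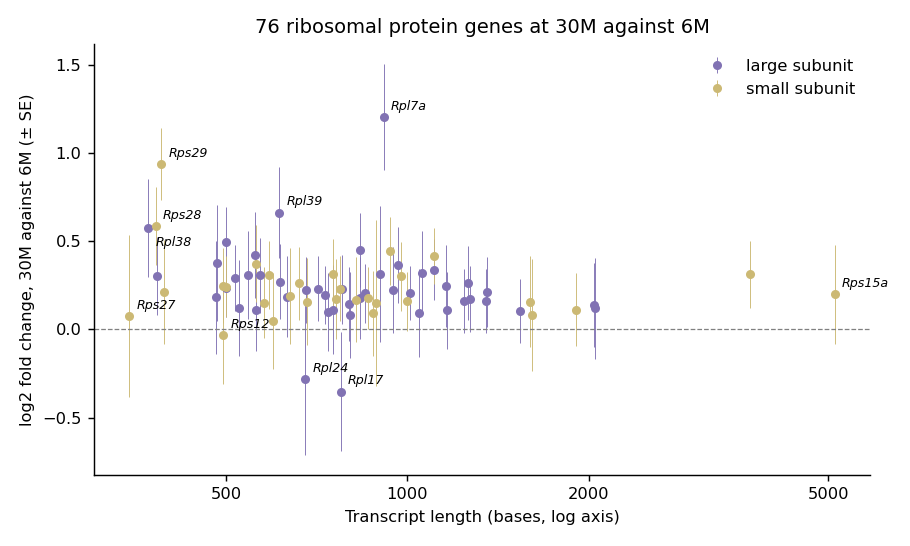
Log2 fold change at 30M against 6M (vertical axis, bars are the SE) of each of the 76 members against the length of its transcript in bases (log axis), coloured by subunit. Points of both subunits lie mostly between 0 and 0.5, with Rpl7a at 1.21 and Rps29 at 0.94 above and Rpl17 at -0.35 below.

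Per kb of transcript, the most abundant members were Rps14 at 1276 CPM, Rplp1 at 1252 CPM and Rps27 at 1223 CPM, followed by Rpl41, the shortest ribosomal protein, at 1077 CPM. Rps14 is the member whose loss underlies the anaemia of the human 5q deletion. The lowest were Rpl24 at 2.1, Rps10 at 2.38 and Rpl13a at 17.6 CPM per kb, all means over the 12 libraries. Another gene model on the same strand covers 47% of the exonic bases of Rpl24, 29.4% of Rpl13a and 20.6% of Rps10, and each of these models has 0 counts in the table. Whether reads shared by overlapping genes were dropped is not given in the sources used here, and the part of the overlap in these low levels was not tested. Rpl13a, a protein also known for restraining translation of inflammatory mRNAs, had 20.3, 27.1 and 12.6 CPM at 30M, and 16.9, 18.9 and 20.4 CPM at 6M.

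Pseudogene copies took further reads. The table has 308 pseudogene rows for 61 of the members, 102 of them with no count, and together they held 3.98% to 5.3% of the members' counts in each library. Rpl31 and Rps12 have 24 such rows each and Rpl21 has 15. Pseudogene counts exceeded those of the gene for Rps10, at 4834% of it, and for Rpl17, at 261%, and reached 36.2% for Rps7. Rps10 with its pseudogene rows gave 116, 131 and 79.7 CPM at 30M, and 99.2, 96 and 103 CPM at 6M, the split seen in most members. Rpl17 with its rows gave 581, 654 and 295 CPM at 30M, and 498, 477 and 537 CPM at 6M, so 2 libraries of 30M were above all of 6M. On the gene row alone no library of 30M was above the 6M range. Levels of these genes are uncertain to that extent. Genes on the opposite strand cover 66.2% of the exonic bases of Rpl35, 59.7% of Rpl23a and 25.3% of Rpl31, and whether counting used the strand is not given in the sources used here.

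The bases around the annotated start, which the selection rule did not use, are where a TOP tract would lie. RefSeq start windows on GRCm38.p6 were matched for 56 of the 76 members, Rps29 not among them. Each line gives 15 bases before the start and 15 from it, 5′ to 3′ on the gene's strand, with the longest run of C or T in capitals. They are shown for 8 members whose values are given above. Among them are Rpl7a, above the 6M range in every older library, and Rps27, lowest in the GC-trended libraries.
Rpl7a: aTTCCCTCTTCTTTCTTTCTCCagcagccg
Rpl39: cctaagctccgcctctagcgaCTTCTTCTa
Rpl38: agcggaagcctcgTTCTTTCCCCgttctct
Rps27: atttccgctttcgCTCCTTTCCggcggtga
Rps6: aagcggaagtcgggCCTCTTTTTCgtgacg
Rplp2: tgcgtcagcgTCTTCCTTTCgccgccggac
Rps2: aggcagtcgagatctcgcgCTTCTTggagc
Rps28: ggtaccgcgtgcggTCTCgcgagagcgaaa
The windows lie at chr2:26910792-26910821 (plus) for Rpl7a, chrX:37085208-37085237 (minus) for Rpl39, chr11:114668565-114668594 (plus) for Rpl38 and chr3:90213634-90213663 (minus) for Rps27. Those of Rps6, Rplp2, Rps2 and Rps28 are chr4:86857353-86857382 (minus), chr7:141447636-141447665 (plus), chr17:24720048-24720077 (plus) and chr17:33824548-33824577 (minus). Within 25 bases on either side of the start, a run of at least 8 C or T on the gene's strand was present in 27 of the 56 members (48.2%), against 19.7% of all 32851 windows. Both Rpl7a, high in the GC-trended libraries, and Rps27, lowest in them, have such runs across the start, of 21 and 9 bases. Rps2 and Rps28 had runs of 6 and 4 bases in the printed window.

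Rps3a1, Fau and Rack1, ribosomal proteins whose symbols fall outside the selection rule, were not called by edgeR, DESeq2 or limma voom, and none had an unadjusted p under 0.05 with edgeR. Rps3a1 had 1076, 1398 and 649 CPM at 30M, and 1001, 1055 and 1042 CPM at 6M. Fau, a fusion with a ubiquitin-like protein, had 393, 556 and 309 CPM at 30M, and 310, 335 and 328 CPM at 6M (log2 fold change 0.37, adjusted p = 0.551). Rack1, a signalling scaffold on the small subunit, averaged 510 ± 51.5 CPM at 30M and 431 ± 29.9 CPM at 6M (adjusted p = 0.667). Of 8 paralogs, Rps27l, Rpl22l1, Rpl36al, Rps4l and Rpl7l1 could be tested and none was called or had an unadjusted p under 0.05 with any of the 3 tools, with log2 fold changes of -0.16 to 0.16 at 30M against 6M. The muscle paralog Rpl3l had 181 counts in all, Rpl39l had 7, and Rpl10l had none.

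The mitochondrial ribosomal proteins, which are encoded in the nucleus and serve a separate ribosome, were also low in the 3 GC-trended libraries. Their median relative to 6M was -0.22 in 20M_221, -0.18 in 20M_222 and -0.31 in 30M_220, and 0.15 in 30M_218. Of 77 tested none was called at 30M against 6M, the median was 0.01, and no unadjusted p was under 0.05. DESeq2 and limma voom also called none.

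The wider translation machinery gave no calls at 30M against 6M with edgeR, DESeq2 or limma voom. Of 19 translation factors and other genes with TOP mRNAs, 18 had a fold change above zero with a median of 0.14. None had an unadjusted p under 0.05 with edgeR or DESeq2, and 1 did with limma voom. Their highest library was 12M_208, at a summed 14179 CPM against 9409 to 9883 CPM at 6M. Pabpc1, the cytoplasmic poly-A binding protein, averaged 353 ± 33 CPM at 30M and 292 ± 23.3 CPM at 6M (log2 fold change 0.27, adjusted p = 0.608), and the initiation factor Eif4b averaged 324 ± 15.6 CPM at 30M and 275 ± 1.4 CPM at 6M (log2 fold change 0.24, adjusted p = 0.618). The 30 ribosome biogenesis genes had a median of 0.04 with no unadjusted p under 0.05, and their summed level differed little between libraries, at 1297 to 1439 CPM summed from 12M on and 1315 to 1378 CPM at 6M. Polr1a, the large subunit of RNA polymerase I, and Bop1, a 60S assembly factor, had log2 fold changes of 0.28 and 0.23 (adjusted p = 0.693 and 0.649).

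Of 16 genes of mTORC1 and TOP mRNA control, none was called by edgeR, DESeq2 or limma voom. An unadjusted p under 0.05 was seen in 1 gene with edgeR, 1 with DESeq2 and 2 with limma voom. The gene with edgeR was Deptor, an inhibitor of mTOR. It had 65.1, 52.7 and 50.8 CPM at 30M, and 65.5, 78.2 and 94.1 CPM at 6M, without overlap (log2 fold change -0.50, SE 0.15, adjusted p = 0.145). Eif4ebp1, a translation repressor that mTORC1 inactivates, averaged 29.3 ± 2.46 CPM at 30M and 23.2 ± 2.92 CPM at 6M (adjusted p = 0.493). None of the 8 genes of the Myc network, which drives ribosome synthesis, was called or had an unadjusted p under 0.05 with any of these tools, and Myc averaged 10.5 ± 2.08 CPM at 30M and 8.32 ± 0.295 CPM at 6M (adjusted p = 0.619).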

How the data were processed

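The authors' deposited table holds unnormalized whole-number counts of reads for each gene. The submitters' processing notes list featureCounts, HISAT2 2.1.0, Trimmomatic 0.38 and FastQC 0.11.7, with the build GRCm38. No source used here gives the annotation release, the strand setting or the treatment of shared reads. Groups and replicate numbers come from the titles. Libraries of the same age differed beyond sampling noise, with a chi-square per gene of 7.14 to 54.4; none was a duplicate.

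All 12 libraries entered 1 edgeR 4.0.16 quasi-likelihood fit (R 4.3.3, TMM, filterByExpr by age, robust), with 5 contrasts between ages, a joint test and a slope per month. Genes were called at a Benjamini-Hochberg adjusted p under 0.05 over 18407 genes. The common biological coefficient of variation was 0.236. The script was tested on simulated data. Library medians used log2 CPM with a prior count of 2. GC and length come from 1 transcript per gene of GENCODE M21, with lowess curves of span 0.3. Start sequences are RefSeq's.

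Alternatives were DESeq2 1.42.0, limma 3.58.1 voom with quality weights, other scalings, no count filter, other libraries in the fit, and removal of GC or length curves. Members and gene lists were chosen with earlier results of these data known. Named members are those called, of smallest p, extreme level, change or spread, of most pseudogene rows or counts, and a set chosen by role. Rpl28, Rpl36a, Rpl37, Rps18, Rps23 and Rps24 were named for their values. Counting sets the precision of Rpl24 and Rps10, of at most 48 counts in any library. Some genes are not reported here.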

Additional observations from a re-analysis of the deposited data

How the results depend on the processing

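No paired analysis was possible because the ages share no replicate number. The count of members called at 30M against 6M, 1 as reported, was 2 with DESeq2 (4.09% of all genes called), 2 with limma voom (3.26%), 0 with only these ages in the fit, 9 with the term for the 3 GC-trended libraries, 2 without those libraries and 0 to 3 with 1 library left out. For the slope it was 2, 2, 11 and 8 with DESeq2, limma voom, the term and the 9 remaining libraries, and 0 to 2 with 1 library left out. Limma voom called 2 members at 20M against 6M. DESeq2 called 1 at 30M against 20M. The joint test called 3 with DESeq2 (4.28% of all genes), 11 with limma voom (8.64%) and 1 without a count filter, where 316 genes were called. With 1 library left out, the most members called at 30M against 6M, 3, came without 30M_220, where 326 genes were called. Counts at an unadjusted p under 0.05 depended on the tool. At 30M against 6M they were 7 with edgeR, 9 with DESeq2 and 18 with limma voom, and at 30M against 20M 1, 2 and 63. The share of all genes at that level is not given for DESeq2, limma voom or the joint test.

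The median at 20M against 6M was 0.2721 with the term and 0.2222 without the 3 libraries, and at 20M against 12M 0.07026 and 0.01694, where fewer 20M libraries carry the estimate. Rps12 turned positive at 30M against 6M with limma voom (0.04839), the term (0.1975) and 9 libraries (0.2439), and without 6M_203 (0.002044) or 30M_220 (0.2436). Rpl24 did so with 9 libraries (0.05731) and without 30M_220 (0.05691). The cause was not tested. With 1 library left out, Rps12 ran from -0.2715 to 0.2436 and Rpl24 from -0.663 to 0.05691. Other scalings of the counts (DESeq2 size factors, upper quartile, or TMM without the members) changed no count of called members. Rps29 kept its direction in all 23 alternatives, with adjusted p from 0.00068 to 0.174.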
